A study of Mus musculus with 8 samples.

Results

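The stretch described here is the 3' end of the mouse immunoglobulin heavy chain locus, Igh, a window of 200 kb on mm9 chromosome 12. It runs from genes downstream of Igh, over the 3' CTCF-binding elements and the 3' regulatory region, up to Igha, the constant gene Cα of IgA. Its members are all Rad21 peaks of the 8 deposited peak lists that overlap the window, 98 of 199072 peaks in all, and they lie between 114305200 and 114499814. Each list gave 5 to 27 of them.

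The lists come from CH12F3 cells, murine lymphoma B cells able to change their antibody class to IgA, stimulated for 3 days (anti-CD40, IL4, TGF-β). Each line was AID-/- and so without the deaminase that initiates class switching. Every list maps Rad21, a subunit of the cohesin ring. The series title names the orientation of switch recombination and its basis in chromatin, and 4 genotypes have 2 libraries each. FS_Ca (Iγ3-FS-Cα-AID-/-) carries a deletion from Cγ3 to Iα that keeps the full-length Sγ3 and Sα switch regions. PS_Ca (Iγ3-PS-Cα-AID-/-) carries a deletion from Sγ3 to Sα that keeps parts of both. Both Ca lines come from cells with a deletion on the non-coding Igh allele, from VH to the 3' elements (printed in the labels as 3'BCEs). FS_Ia (Iγ3-FS-Iα-AID-/-) carries a deletion from Cγ3 to Cα with full-length switch regions, and PS_Ia (Iγ3-PS-Iα-AID-/-) one from Sγ3 to Sα with partial ones. These Ia lines were made in αInv cells. The labels give no state of the non-coding allele for αInv cells. A difference between Ca and Ia lines in this window therefore cannot be told apart from a difference in the number of alleles that carry it. Nothing in the labels says that replicates are separate cultures, so p-values measure only the spread between these samples.

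Cohesin extrudes chromatin into loops and halts at CTCF bound to its motif in the orientation that faces the advancing loop. The 3' CTCF-binding elements are a cluster of such motifs at the downstream end of Igh and serve as a loop anchor and insulator for the locus. Between them and Cα lies the 3' regulatory region, a set of enhancers that drives germline transcription of the switch regions and class switching in activated B cells. In the RefSeq annotation of GRCm38, another build, the protein-coding neighbours of Igha on this side are, going away from Cα, Tmem121, Tedc1, Crip1, Gm30599, Crip2 and Mta1. Tmem121 encodes a transmembrane protein, Crip1 and Crip2 small LIM-domain proteins, and Mta1 a subunit of the NuRD chromatin remodeller. With no mm9 annotation or sequence at hand, no peak was assigned to a gene, an enhancer or a CTCF motif.

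Rad21 at the 3' end of Igh was concentrated in a short cluster common to all 4 genotypes. Overlapping peaks of all libraries merged into 29 regions, of which 2 held a peak in all 8 libraries. They lie side by side at chr12:114453661-114456961, called the Cα-distal region here, and chr12:114457842-114462624, the Cα-proximal region, with 880 bp between them. Each had more than one summit. Summits of all libraries were joined into sites where neighbours lay within 500 bp, which gave 32 sites, and 4 of these were found in at least 7 libraries. In order towards Cα they are site A (median summit 114454323.5), site B (114456348), site C (114458898.5) and site D (114460636). Sites A and B belong to the Cα-distal region, sites C and D to the Cα-proximal one.

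**Figure D1:**
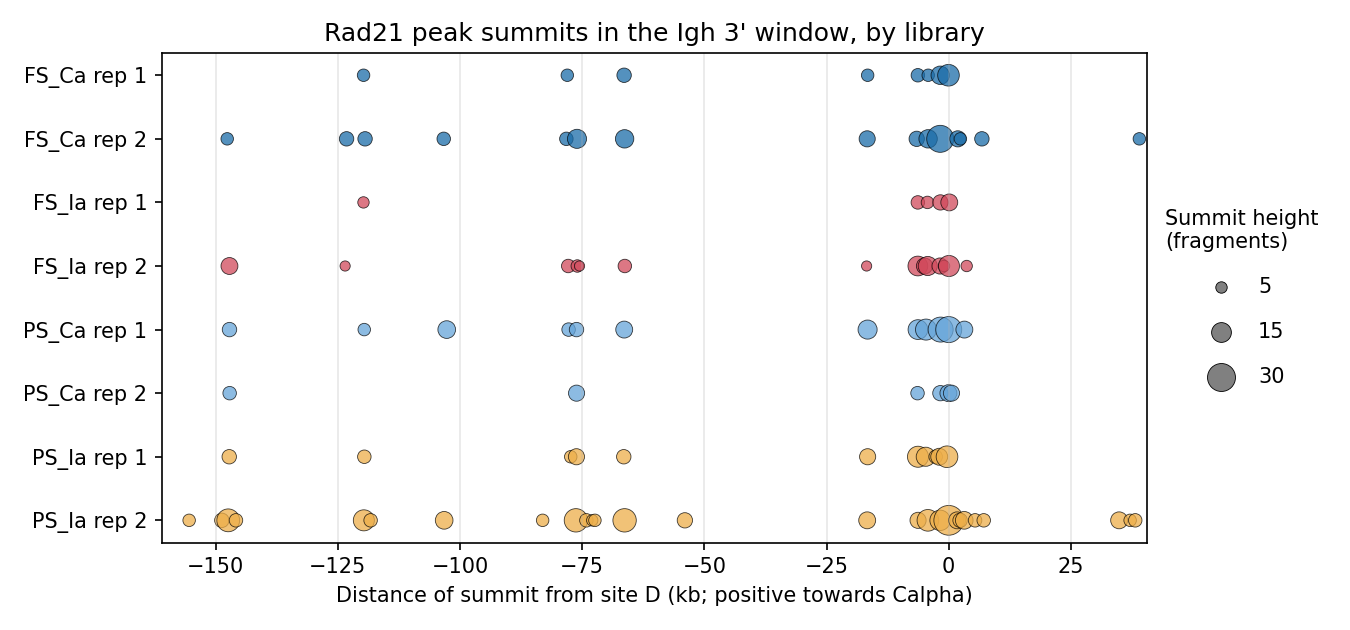
Summits of all 98 peaks, by library (rows), at their distance in kb from site D, with positive values towards Cα; the area of a point grows with the summit height in fragments and colours mark the genotype. The tallest summit of each library sits at site D or, in FS_Ca replicate 2, at site C, and PS_Ia replicate 2 alone has 27 points.

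Summit positions recurred closely. The summit of site A was at 114454324 in FS_Ca replicate 1 and at 114454088 in FS_Ca replicate 2. It was at 114454319 and 114454323 in the FS_Ia libraries and at 114454344 and 114454257 in the PS_Ca libraries. In PS_Ia replicates 1 and 2 it was at 114454350 and 114454365. FS_Ca replicate 2, where the site lay in a peak of 1153 bp, stood lowest, and the other 7 libraries lay between 114454257 and 114454365. The SD over the 8 libraries was 90.1 bp at site A and 87.3 bp at site C. At site D it was 148 bp and at site B 206 bp (7 libraries each), where the summit of PS_Ia replicate 1 was the lowest at both.

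Spacing between the sites was also similar from library to library. Site B lay 1956 ± 259 bp from site A, site C 2619 ± 198 bp from site B, and site D 1715 ± 92.6 bp from site C (SD, n = 7 libraries each). The cluster thus spanned 6.31 kb from site A to site D. Of the 9831 sites of the genome found in at least 7 libraries, 21 (0.214%) started a stretch of 10 kb with 4 or more such sites, and site A was among them. The stretch length and the minimum of 7 libraries were chosen after the cluster had been seen, so this is a description.

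Peak calls joined the sites differently. In FS_Ca replicate 2 a single peak of 4253 bp covered sites C and D, with its summit at site C, so site D had no summit of its own there although it lay inside a peak. In PS_Ia replicate 2 the peak of site C was 2089 bp wide, and in PS_Ca replicate 2 the peaks of sites C and D were only 265 and 501 bp wide. PS_Ca replicate 2, the shortest list, had no peak at site B. The Cα-proximal region, 4783 bp wide after merging, was wider than most: 3.11% of the 6747 regions found in all 8 libraries were at least as wide, and the median was 2022 bp. The Cα-distal region, at 3301 bp, was matched or exceeded by 13.4%. A shared neighbour as close as 880 bp was present for 3.08% of shared regions.

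**Figure D2:**
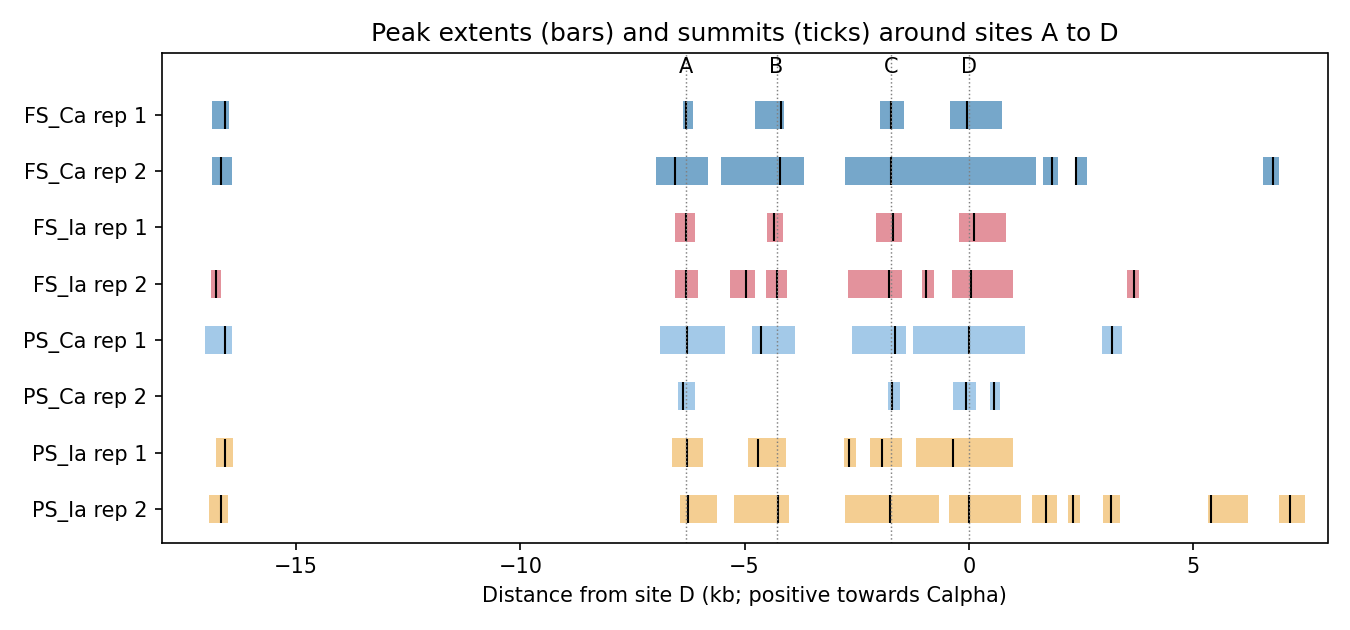
Peak extents (bars) and summits (ticks) in each library around sites A to D (dotted lines), in kb from site D. Summits line up at the 4 sites, while FS_Ca replicate 2 has 1 bar of 4253 bp over sites C and D and PS_Ca replicate 2 has none at site B.

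Site D was the tallest site of the window in 7 of 8 libraries. Heights are numbers of fragments over the summit, recovered from the authors' deposited folds, and rise with depth, so they are compared within a library. The height of site D was 18 fragments in FS_Ca replicate 1, 11 and 17 in FS_Ia replicates 1 and 2, 26 and 11 in PS_Ca replicates 1 and 2, and 18 and 34 in PS_Ia replicates 1 and 2. The tallest, PS_Ia replicate 2, is the longest list and has the highest expected background, 0.862 fragments. Within their own lists, these summits ranked from 606 of 47461 (PS_Ia replicate 2) to 3756 of 11288 (PS_Ca replicate 2).

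Site C was the next tallest of sites A to D in FS_Ca replicate 1, FS_Ia replicate 1 and both PS_Ca libraries. Its heights were 13 and 28 fragments in FS_Ca, 9 and 10 in FS_Ia, 24 and 9 in PS_Ca, and 11 and 16 in PS_Ia (replicates 1 and 2). It led the window in FS_Ca replicate 2, where it shared its peak with site D. In PS_Ca replicate 1 it was close to site D, at 24 against 26 fragments. In FS_Ia replicate 2, PS_Ia replicate 1 and PS_Ia replicate 2 it stood below site A or site B.

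Site A had 7 and 9 fragments in FS_Ca, 7 and 15 in FS_Ia, 15 and 7 in PS_Ca, and 17 and 10 in PS_Ia. Site B had 6 and 13 fragments in FS_Ca, 6 and 14 in FS_Ia, 17 in PS_Ca replicate 1, and 14 and 18 in PS_Ia. Neither site led the window in any library. In some lists a site outside the cluster was taller than both, such as that at 114384492.5 with 21 fragments in PS_Ia replicate 2. Counting error is wide at such heights: the 95% Poisson interval is 2.81 to 14.4 fragments for a height of 7, 9.90 to 27.2 for 17 and 23.5 to 47.5 for 34, and it covers counting error only.

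**Figure D3:**
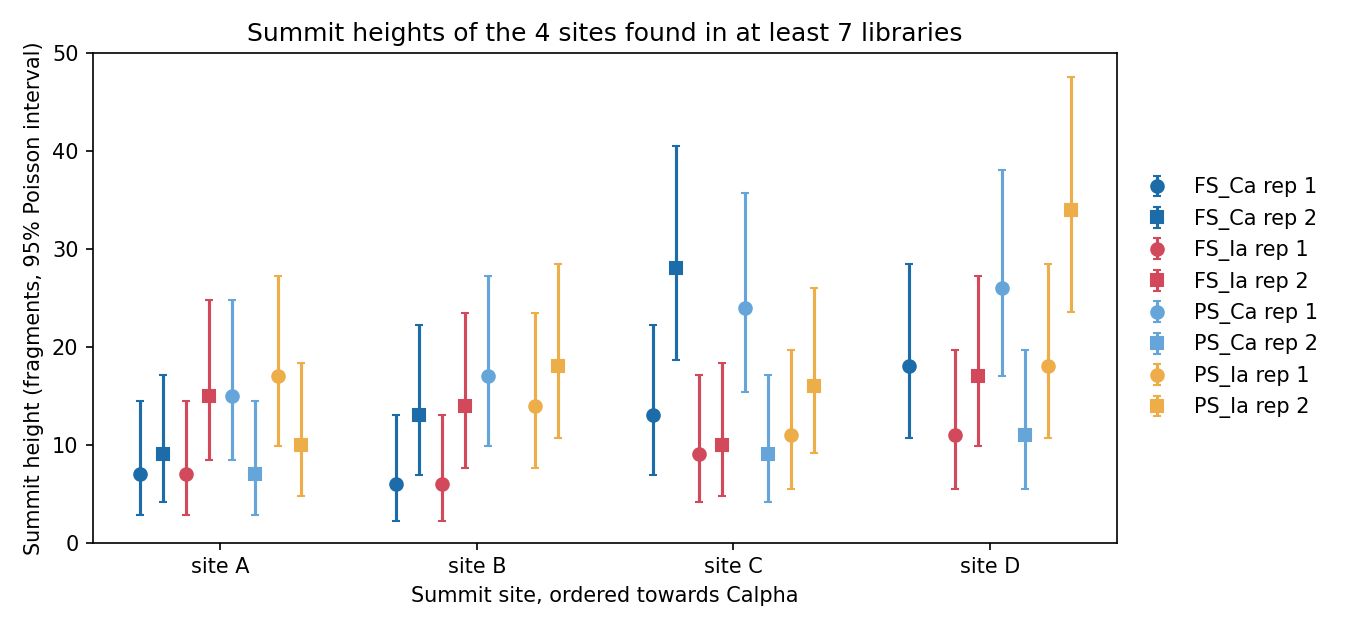
Summit height in fragments (y axis) of sites A to D in each library, with 95% Poisson intervals; circles are replicate 1, squares replicate 2, and colours mark the genotype. Site D has the highest point, 34 fragments in PS_Ia replicate 2, with an interval of 23.5 to 47.5.

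The Cα-proximal region was stronger than the Cα-distal one in 8 of 8 libraries. By the fold at the leading summit, the ratio of the first over the second was 2.38 and 2.07 in FS_Ca, 1.5 and 1.12 in FS_Ia, 1.5 in both libraries of PS_Ca, and 1.06 and 1.84 in PS_Ia (replicates 1 and 2). The mean difference was 0.65 ± 0.40 on the log2 scale (SD, n = 8). This comparison was set up as the strongest region of the window against the second, so its direction follows from the choice of regions and it is given with no test.

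The 6747 regions found in all 8 libraries give every list the same denominator. Among them, the Cα-proximal region ranked mostly above the middle and the Cα-distal one mostly below it. On a percentile where 100 is the strongest, the Cα-proximal region stood at 84.9 and 86.5 in FS_Ca and at 52.8 and 67.4 in FS_Ia. It stood at 69.3 and 49.7 in PS_Ca and at 60.7 and 90.6 in PS_Ia. The strong libraries were both FS_Ca libraries and PS_Ia replicate 2, so its high values fell in both orientations and both switch lengths. The Cα-distal region stood at 8.71 and 19.4 in FS_Ca, 13.8 and 59.1 in FS_Ia, 27.0 and 8.40 in PS_Ca, and 55.4 and 36.0 in PS_Ia. Its 3 highest values were all from Ia libraries, but FS_Ia replicate 1 lay among the Ca libraries, so the groups overlapped.

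**Figure D4:**
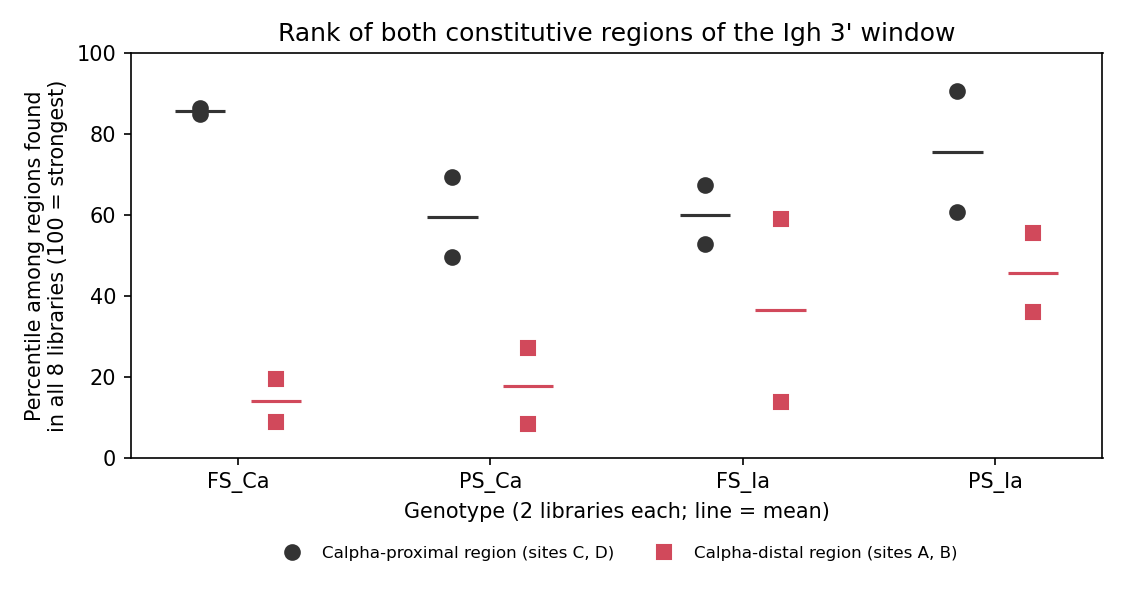
Percentile of the Cα-proximal (circles) and Cα-distal region (squares) among the 6747 regions found in all 8 libraries, per library and genotype, with the mean of 2 libraries as a line; 100 is the strongest. The Cα-distal region lies at 27.0 or below in all 4 Ca libraries and at 13.8 to 59.1 in the Ia libraries.

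Orientation was compared on these percentiles. The Cα-distal region had a mean of 41.1 ± 20.8 in the Ia group and 15.9 ± 9.03 in the Ca group (SD, n = 4 each), 25.2 points apart. This did not pass (two-sided exact permutation, p = 0.0857; adjusted over all 6747 shared regions, p = 1), where 4 against 4 libraries allow no p below 0.0286. A difference of that size or larger was found for 6.91% of the shared regions, whose median absolute difference was 8.44 points. The Cα-proximal region had 67.9 ± 16.3 in Ia and 72.6 ± 17.1 in Ca libraries, a difference of -4.72 (exact permutation p = 0.743; adjusted p = 1). Neither of the 2 regions separated the orientations without overlap. Among all shared regions 1.33% did so with Ia above Ca and 1.38% with Ca above Ia, 183 (2.71%) had an unadjusted exact permutation p under 0.05, and 0 (0%) passed after Benjamini-Hochberg adjustment. With p bounded at 0.0286, a region can pass this adjustment only if a large share of all regions reaches that bound. Failure to pass therefore cannot decide whether a region differs. The same holds for the ranks of sites and for switch length below. Adjustment over the 14 window-level or 6 site-level comparisons has a like limit, as a single comparison at the bound could not pass. Failure to pass there cannot decide whether a measure differs either.

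The names of the peaks share a prefix within 3 sets of libraries: all 4 of FS, replicate 1 of both PS genotypes, and replicate 2 of both. No label says what it stands for. The set with replicate 1 of both PS genotypes was also the one whose lists had no displaced chromosome 12 coordinates, as given below. Whether prefix and displacement have a common source was not tested. The Cα-distal region was higher in Ia in each set, by 22.4, 28.4 and 27.6 points. Each PS set held only 2 libraries, a single one per orientation. In both PS sets the leading summit was at site A in one library and at site B in the other. The region values there thus compare different sites. At site A alone, Ia minus Ca was 38.4 points in the PS set of replicate 1 and -4.80 in that of replicate 2. The Cα-proximal region differed by -25.6, -8.63 and 40.9 points, so its sign did not hold. Leaving out 1 library at a time gave Cα-distal differences of 19.6 (without FS_Ia replicate 2) to 34.7 points (without FS_Ia replicate 1, the Ia library that lay among the Ca libraries), with unadjusted exact permutation p from 0.0286 to 0.171. With regions of 100 bp on each side of summits, the Cα-proximal region was split, and only its part at site C was found in every library. The difference at site C was then -31.2 points (exact permutation p = 0.0857, adjusted p = 1), which is not a value of the whole region.

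At single sites the picture was less clear. Only sites A and C had a summit in all 8 libraries, and were ranked among the 6578 such sites. Site A had a percentile of 33.2 ± 28.5 in Ia and 9.64 ± 5.59 in Ca libraries, a difference of 23.5 points (exact permutation p = 0.257). Site C had 27.7 ± 6.71 in Ia and 58.5 ± 23.3 in Ca libraries, a difference of -30.8 points (exact permutation p = 0.0857; adjusted over all such sites p = 1 for both). Within the sets of peak names, Ia minus Ca was 30.2, 38.4 and -4.80 points for site A, so its sign turned in the last set, and -38.7, -42.6 and -3.18 points for site C. The groups overlapped at both sites, where 1.32% of all such sites had all Ia above all Ca libraries and 1.35% the reverse. Of these 6578 sites, 176 (2.68%) had an unadjusted exact permutation p under 0.05 and 0 (0%) passed after adjustment.

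The fold of site C over that of site A was compared within each list, which needs no common scale. Its log2 ratio was 0.81 and 1.54 in FS_Ca, 0.64 and 0.32 in PS_Ca, 0.32 and -0.54 in FS_Ia, and -0.58 and 0.63 in PS_Ia. Site C was thus the higher one in all 4 Ca libraries and in 2 of the 4 Ia libraries. The mean was 0.83 ± 0.51 in Ca and -0.04 ± 0.61 in Ia libraries (SD, n = 4 each), which is -0.87 for Ia minus Ca (two-sided exact permutation, p = 0.0857; adjusted over 6 site-level comparisons, p = 0.343). Within the sets of peak names the difference was -1.28, -1.23 and 0.31, so the last set went the other way. This ratio was chosen after the values had been seen. For the 2 whole regions, the log2 ratio was 0.43 ± 0.37 in Ia and 0.87 ± 0.34 in Ca libraries, a difference of -0.44 (exact permutation p = 0.171; adjusted over 14 window-level comparisons, p = 0.914). Within the sets it was -0.77, -0.51 and 0.30.

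No difference by switch length passed the test. The percentile of the Cα-proximal region was 67.6 ± 17.3 with partial and 72.9 ± 16.0 with full-length switch regions, a PS minus FS difference of -5.31 (exact permutation p = 0.686). That of the Cα-distal region was 31.7 ± 19.5 and 25.2 ± 23.0, a difference of 6.48 (exact permutation p = 0.686; adjusted p = 0.983 for both). With regions of 100 bp on each side of summits, the difference was that of site C alone, -18.2 points (exact permutation p = 0.257, adjusted p = 0.932). The groups overlapped for both regions, against 1.27% of shared regions with all PS above all FS libraries and 1.62% the reverse. Of all shared regions, 195 (2.89%) had an unadjusted exact permutation p under 0.05 and 0 (0%) passed after adjustment. At the sites, PS minus FS was -0.211 points for site A (exact permutation p = 0.914; adjusted p = 0.995) and -18.3 points for site C (exact permutation p = 0.257; adjusted p = 0.939). There, 1.35% of sites had all PS above all FS libraries and 1.64% the reverse, and 197 (2.99%) had an unadjusted exact permutation p under 0.05 and 0 (0%) passed after adjustment. Each set of peak names held one switch length alone, so the set cannot be told apart from switch length.

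No difference in summit position passed the test, where the same limit of the adjustment holds. The leading summit of the Cα-proximal region was that of site D in all libraries other than FS_Ca replicate 2. The leading summit of the Cα-distal region was at site A in FS_Ca replicate 1, PS_Ca replicate 2, PS_Ia replicate 1 and both FS_Ia libraries, and at site B in the other 3. The mean spacing between the 2 leading summits was 5752 ± 1013 bp in Ia and 4926 ± 1807 bp in Ca libraries (exact permutation p = 0.571), and 5292 ± 991 bp in the PS group and 5386 ± 1939 bp in the FS group (exact permutation p = 0.886; adjusted p = 0.914 for both). The Ia minus Ca difference was 9.5 bp without FS_Ca replicate 2 and 1320 bp without PS_Ia replicate 2. At single sites, the mean mm9 coordinate of the site A summit was 86 bp higher in Ia than in Ca libraries (exact permutation p = 0.171). That of site C differed by -89.5 bp (exact permutation p = 0.143, adjusted over 6 comparisons p = 0.343 for both). By switch length the differences were 65.5 bp at site A (exact permutation p = 0.429) and -27 bp at site C (exact permutation p = 0.83).

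Around the cluster, other regions recurred in part of the lists. On the side away from Cα, chr12:114443606-114444229 held a summit near 114443999 in 6 libraries. Its heights were 6 and 10 fragments in FS_Ca, 4 in FS_Ia replicate 2, 14 in PS_Ca replicate 1, and 10 and 11 in PS_Ia. The lists with the fewest peaks, those of PS_Ca replicate 2 and FS_Ia replicate 1, had none there. On the side of Cα, chr12:114462858-114463275 was found in FS_Ca replicate 2 and PS_Ia replicate 2, with 6 and 8 fragments. Next to it, chr12:114463600-114464059 was found in PS_Ca replicate 1 and PS_Ia replicate 2, with 11 and 12 fragments.

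Farther from Igh, in the stretch from 114312563 to 114394845, 4 regions recurred in 6 or 7 libraries. The widest, chr12:114381964-114385333, was found in all libraries other than FS_Ia replicate 1 and held 2 sites. Its site at 114382793 had 6 or 7 fragments in each of the 5 libraries that held it. The site at 114384492.5 had 14 fragments in FS_Ca replicate 2, 6 in FS_Ia replicate 2, 8 and 10 in PS_Ca, and 10 and 21 in PS_Ia. In PS_Ia replicate 2 a single peak of 3036 bp covered both. Within its own list, the first site stood between percentile 5.23 (PS_Ia replicate 1) and 58.9 (FS_Ia replicate 2). The second was the taller one in each library that had both, other than FS_Ia replicate 2 with 7 against 6 fragments.

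The region chr12:114393606-114394845 had its summit within 218 bp in 6 libraries. Its heights were 8 and 13 fragments in FS_Ca, 7 in FS_Ia replicate 2, 11 in PS_Ca replicate 1, and 8 and 21 in PS_Ia. Like the region at 114443606, it had no peak in PS_Ca replicate 2 or FS_Ia replicate 1.

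The region chr12:114340156-114341660 had 6 and 8 fragments in FS_Ca, 5 in FS_Ia replicate 1, 6 in PS_Ca replicate 1, and 7 and 17 in PS_Ia. It was the only recurrent region of this stretch found in FS_Ia replicate 1. The region chr12:114312563-114314259 had 6 fragments in FS_Ca replicate 2, 11 in FS_Ia replicate 2, 8 and 7 in PS_Ca, and 8 and 20 in PS_Ia, and was missing from the replicate 1 libraries of both FS genotypes. A further region, chr12:114357131-114358726, was found in FS_Ca replicate 2, PS_Ca replicate 1 and PS_Ia replicate 2, with 7, 12 and 12 fragments.

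No region of the window was found in all 4 libraries of one orientation or switch length and in none of the other. Of all 64772 merged regions, 0.0247% were in all 4 Ia and no Ca libraries and 0.0232% the reverse, and 0.0401% were in all 4 PS and no FS libraries and 0.00772% the reverse. Over the 29 window regions the lowest p was 1 for orientation and 0.429 for switch length by two-sided Fisher's exact test (unadjusted), and none was under 0.05.

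A single library accounted for 19 regions, 14 of them from PS_Ia replicate 2. The 14 had heights of 5 to 11 fragments and stood between percentile 1.06 and 70.8 of that list. Away from Cα they start at 114305200, 114311739, 114314682, 114342114, 114377421, 114386382, 114387551, 114388104 and 114406412. On the side of Cα they start at 114465962, 114467560, 114495265, 114497604 and 114498490. The other 5 had 4 to 8 fragments and stood between percentile 7.41 and 38.3 of their lists. FS_Ia replicate 2 had those starting at 114336938 and 114464167, and FS_Ca replicate 2 those starting at 114337281, 114467206 and 114499304. Some of these summits joined into sites with those of other libraries: the regions at 114336938 and 114337281 at 114337296, those at 114467206 and 114467560 at 114467612, and the region at 114464167 with 2 other libraries at 114463840.

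Between the cluster and Cα, 10 of the 29 regions lay on either side of a long gap. In deposited coordinates, no library had a peak between 114468144 and 114495264, 27.1 kb. In 6 lists the coordinates are displaced from some point past the cluster, as given next, so this gap is as unsure as the peaks near Cα. Of all genome tiles of that length, 72.5% held no peak in any library, so an empty stretch of this size is common. The other long gap, 36.7 kb at 114406891 to 114443605, lies between the regions farther from Igh and the side of the cluster. Of tiles of that length, 67.2% were empty. A peak that is missing was below the threshold of its list and is not shown to be absent.

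Peaks near Cα could not be placed. Beyond the window, summits on chromosome 12 were displaced from those of PS_Ia replicate 1 in 6 lists. The offset was 97.0 kb for FS_Ca replicates 1 and 2, 99.4 and 99.3 kb for those of FS_Ia, and 101 and 103 kb for replicate 2 of PS_Ca and PS_Ia. PS_Ca replicate 1 differed by -0.043 kb. Within the window, every list had summits within 500 bp of one in PS_Ia replicate 1 as far as the cluster, the last of them between 114458898 and 114460753, so the cluster itself was not displaced. The 4 peaks at 114495265 to 114499814, 3 from PS_Ia replicate 2 and 1 from FS_Ca replicate 2, come from displaced lists. The tallest had 11 fragments, with its summit at 114495503. As deposited, their nearest summit in either list without displacement was 31.7 to 35.8 kb away, and after the offset was added 61.5 to 66.5 kb away. No peak of this window can therefore be given to Igha itself.

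The number of peaks in the window went with the length of the list. FS_Ca had 8 and 15 peaks in lists of 17212 and 31550, FS_Ia 5 and 14 in lists of 13840 and 26157, PS_Ca 12 and 6 in lists of 30982 and 11288, and PS_Ia 11 and 27 in lists of 20582 and 47461 (replicates 1 and 2). Per 10000 peaks of a list, the window held 4.65 and 4.75 in FS_Ca, 3.61 and 5.35 in FS_Ia, 3.87 and 5.32 in PS_Ca, and 5.34 and 5.69 in PS_Ia. When each list was reduced to its 11288 strongest peaks, 4 to 8 window peaks were left in every library, 2 to 5 of them in the cluster.

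No difference in the number or extent of peaks passed the test, which a single comparison at the lowest possible p could not pass after adjustment. Ia libraries had 14.2 ± 9.29 window peaks and Ca libraries 10.2 ± 4.03 (SD, n = 4 each; exact permutation p = 0.571), and per 10000 peaks 5.0 ± 0.938 and 4.65 ± 0.594 (exact permutation p = 0.543). PS libraries had 14 ± 9.06 and FS libraries 10.5 ± 4.80 (exact permutation p = 0.629), and per 10000 peaks 5.06 ± 0.806 and 4.59 ± 0.723 (exact permutation p = 0.429). The length covered by peaks was 10.4 ± 8.92 kb in Ia and 7.43 ± 5.49 kb in Ca libraries (exact permutation p = 0.657), and 10.8 ± 9.03 kb in PS and 6.97 ± 4.90 kb in FS libraries (exact permutation p = 0.543). Leaving out 1 library moved the Ia minus Ca difference per 10000 peaks from 0.352 to between 0.0937 (without PS_Ca replicate 1) and 0.814 (without FS_Ia replicate 1, exact permutation p = 0.0571), and the PS minus FS difference from 0.464 to between 0.137 (without FS_Ia replicate 1) and 0.858 (without PS_Ca replicate 1). With all libraries included, the adjusted p over the 14 window-level comparisons was 0.914 for each comparison of number, share and covered length. Without PS_Ia replicate 2 the differences in peak number were -0.25 (Ia minus Ca) and -0.833 (PS minus FS), and those in covered length -1.35 and -0.283 kb. Within the sets of peak names, Ia minus Ca was -2, -1 and 21 peaks, or -0.219, 1.47 and 0.374 per 10000 peaks, and -3.70, -2.31 and 21.5 kb covered.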

How the data were processed

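Rad21 ChIP-seq libraries (Tn5 tagmentation, paired ends, per the labels' protocols) were deposited as one narrowPeak list each, 11288 to 47461 peaks. Per the submitters' processing notes, Bowtie2 2.4.4, SAMtools 1.15.1, deepTools 3.5.1 and MACS2 2.2.7.1 were used, with mm9. Each deposited list gives, from the authors' peak caller, the fold enrichment at the summit, −log10 q, −log10 p and an integer score. The lowest −log10 q was 1.53 to 2.17 across the lists. No source used here gives total reads, so depth is known only through list length and background.

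Heights in fragments were recovered from the deposited folds as (height + 1) over (background + 1), and were whole within 0.01 for 100% of peaks. Peaks that overlapped by at least 1 bp were merged over the 8 lists, and summits were joined within 500 bp. Strength was the percentile of the fold among features found in all 8 libraries. Orientation (Ia against Ca) and switch length (PS against FS) were each tested on 4 against 4 libraries by exact permutation over 70 assignments, with Benjamini-Hochberg adjustment over all features. The test was checked on simulated data with Poisson counting error and no other spread between libraries of a group. There, 100% of 4-fold changes were recovered at an unadjusted p under 0.05 over 6747 regions and 3.88% of unchanged regions were called. Recovery after adjustment was not simulated, so these shares do not give the power of the test in the real libraries. Presence was tested with Fisher's exact test. Regions and sites named are those in 2 or more libraries, with the single-library regions given by start. The members, lists and comparisons were chosen with earlier results of these data known, and the site-level comparisons were added after the values had been seen. Alternatives were a stricter list threshold, equal list lengths, other region definitions, a replicate block and leaving out each library. No mm9 sequence or annotation was used, so no sequence is printed. Tests were run in scipy 1.17.1 (Python 3.11.15, with pandas 2.3.3 and numpy 2.4.6) and figures drawn in matplotlib 3.10.9.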

Additional observations from a re-analysis of the deposited data

Results flagged for a closer look

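In 36 groups of 4 libraries, a library was looked for whose gap to the nearest other exceeded 0.83 of the group's range. It was found 6 times. Chance gives about 1 in 20 groups for separate groups of normally distributed values. These groups share libraries and related measures, and leading summits move between fixed sites, so that rate cannot be set against the 6. FS_Ia replicate 1 had 3.61 window peaks per 10000 peaks of its list, against 5.34 to 5.69 in the other Ia libraries. In FS_Ca replicate 2 the leading summit of the Cα-proximal region was at 114458898, against 114460574 to 114460636 in the other Ca and 114460590 to 114460753 in the other FS libraries. In the same library the leading summit of the Cα-distal region was at 114456419, against 114454319 to 114454324 in the other FS libraries. Its spacing between these summits was 2479 bp, against 6266 to 6434 bp in the other FS libraries. In PS_Ia replicate 2 the leading summit of the Cα-distal region was at 114456379, against 114454319 to 114454350 in the other Ia libraries. The summit flags are shifts from one site of the cluster to its neighbour (from D to C, or from A to B).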

How the results depend on the processing

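For the 18 group comparisons of peak number, share, length, position, ratio and rank, alternatives other than the block gave 178 values, of which 161 kept their direction and 17 changed sign. None of the 18 had an adjusted p at or under 0.05 under any setting run, and 1 of the 178 values had an unadjusted exact permutation p under 0.05. In none of these settings could a single comparison at its lowest possible p pass the adjustment, so this cannot decide whether a measure differs. The lowest presence p (Fisher's exact test, unadjusted) was 0.143 to 0.486 under the alternatives. The rank of the Cα-proximal region, Ia minus Ca, was 0.348 within the full lists, against -4.72. Regions of 100 bp on each side of summits, and summit sites, split both merged regions. Only sites C and A then had a rank, so these values describe another feature and not the same region processed otherwise. For site C, Ia minus Ca was -31.2 and -30.8 and PS minus FS was -18.2 and -18.3. The whole Cα-proximal region had -4.72 and -5.31. For site A, PS minus FS was -0.110 and -0.211. The counts of values above include those of the sites. Leaving out 1 library gave these ranges. For Ia minus Ca, peak number ran from -0.25 to 7.08, covered length from -1.35 to 5.50 kb (both negative without PS_Ia replicate 2), the Cα-proximal summit from -5.75 (without FS_Ca replicate 2) to 574 bp, and the Cα-proximal rank from -12.2 to 0.345 (without FS_Ia replicate 1). For PS minus FS, peak number ran from -0.833 to 6.17, covered length from -0.283 to 6.87 kb (again without PS_Ia replicate 2), the Cα-proximal summit from -140 (without FS_Ca replicate 2) to 478 bp, and the spacing from -1063 (without FS_Ca replicate 2) to 256 bp. The Cα-proximal rank ran from -13.0 to 0.741 (without PS_Ca replicate 2), and the Cα-distal rank from -1.27 (without PS_Ia replicate 1) to 17.7. The cause was not tested. With the replicate block (36 assignments), the Cα-distal rank, Ia minus Ca, had an exact permutation p of 0.111 (adjusted p = 0.996). The block leaves each difference as it is and changes only its p. With 36 assignments no two-sided exact permutation p can fall under 0.05, so the block could not have given a call. Deviations of same-numbered libraries correlated at -0.202 to 0.325 over 6 genotype pairs, and were not over 0.1 in every pair, so the numbers were not taken to pair the libraries. Same-numbered PS libraries do share a peak-name prefix, and the values within those sets stand in the report. The Cα-distal region had no rank at a −log10 q of at least 5. Short lists limit what a missing peak can show.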
